A study of Mus musculus with 18 samples.

Results

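Leg muscle of 2 mouse strains was compared: the non-tumor-bearing CD2F1 mice of the C26 experiment against the non-tumor-bearing C57/B6 mice of the LLC experiment. The genes described are the 96 of 254 on the nCounter mouse inflammation panel whose deposited mean was 100 or more in either of these groups, with the panel's positive and negative control rows left out. Of the 96, 5 are housekeeping genes, which served for scaling with a sixth that fell under the minimum; of the 91 others, 90 could be tested and 1, H2-Ea-ps, has only an upper bound in LLC. The panel's fluorescent barcoded probes are counted one RNA molecule at a time with no amplification step, and 100 ng of total RNA of TA muscle (tibialis anterior, a leg muscle) from male mice was loaded per sample. The study set mice with tumors of 3 cancer cachexia models against non-tumor-bearing mice of the same model, 3 samples in each of 6 groups, lettered A to C. The C26 groups are CD2F1 mice without tumors and CD2F1 mice injected with C26 cells, a colon carcinoma line. The LLC groups are C57/B6 mice without tumors and C57/B6 mice injected with LLC cells, a lung carcinoma line. Non-tumor-bearing KPP mice, also C57/B6, served as a further group; KPP tumors were induced with tamoxifen, and whether the KPP controls received it is not given. No age and no further allele is given for any group in the sources used here, and nothing says that each sample came from a separate mouse, so p-values measure the spread between samples.

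CD2F1 mice are the first-generation hybrid of BALB/c and DBA/2 and share none of their parents with C57/B6, so the strains carry different alleles at many immune genes. The best known difference lies in the major histocompatibility complex, whose class II molecules display peptides to helper T cells. The class II molecule E pairs an alpha chain, from H2-Ea, with a beta chain, from H2-Eb1; C57/B6 mice carry a deletion at the start of H2-Ea and make no E molecule, while BALB/c and DBA/2 make it. Muscle at rest holds, beside its fibers, resident macrophages, fibroblasts, vessel cells and some fat cells, which supply most of the complement and cytokine genes that such a panel reads.

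Strain, tumor model and the authors' normalization are the same split in these groups, and their parts in any difference below cannot be told apart, and the labels name no measurement run. The deposited signal was scaled by the authors to the housekeeping genes within each model, so each gene was divided here by the geometric mean of Cltc, Gapdh, Gusb, Hprt, Pgk1 and Tubb5 in its sample (the housekeeping mean), and levels are given as a percent of it. The values of the 6 control samples rest on 47736 to 94955 counts, which puts a counting error of 8.17% to 10.8% on a value of 100. Members ended at Smad7, whose higher group mean was 103, while Myl2, a slow-fiber myosin light chain, fell just outside at 98.5. The muscle transcription factor Mef2c stood at 124% to 506% of the housekeeping mean in the 6 controls. The 3 C26 controls differed more among themselves than any other group without tumors: the median SD over the 90 genes was 0.51 on the log2 scale, against 0.13 in LLC and 0.15 in KPP controls. Control A was at least 2-fold above both others for 19 genes, among them C4a, C3, Cfd, Cd163 and Mrc1, and control C for 6, among them Il6ra, Myc and Hspb1. For each of the 15 genes that passed the test below, the samples labelled C26 tumor-bearing lay clear of those labelled C26 control, on the LLC side. The 15 were picked for the distance of these same C26 controls from LLC, which favours this order. Its share over all 90 genes was not counted. Mrc1, Myc, Cfd and Hdac4, which did not pass, showed it too, so it is not read as a trait of the 15. Because of this order, the 15 genes are given for the samples as labelled and also with the other labelled group in place. Whether a label is wrong was not tested.

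H2-Ea-ps, the H2-Ea transcript under the pseudogene name it bears in C57/B6, had a deposited value of 115 or more in all CD2F1 samples, while every LLC sample was at the floor of its table and no KPP sample exceeded 5.24. Its deposited signal was 1399 in C26 control A, 261 in B and 115 in C. All 6 LLC samples were at 20, the floor below which the authors' LLC table gives no value. Control A was the highest of the 3, and even control C lay at least 6.40-fold above that floor after scaling. The group mean of the C26 controls was at least 19.3-fold higher than the LLC floor, or at least 15.8-fold when scaled without Gapdh and Pgk1, and at least 9.63-fold without control A, 22.3-fold without B and 33.6-fold without C. In the samples labelled C26 tumor-bearing the signal was 318, 306 and 579, at least 21.3-fold higher than the LLC floor. KPP values, from a table in which background was subtracted, were 1.98, 5.24 and 1 in controls and 1.27, 1 and 1.95 in tumor-bearing mice. H2-Ea-ps was the only member for which every CD2F1 sample lay above all 12 C57/B6 samples, under either scaling.

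Its partner H2-Eb1, the beta chain, was read in both strains, at 714, 170 and 58.3 in the C26 controls and 233, 190 and 200 in the LLC controls. The groups overlapped, and the scaled log2 difference was 0.05 with a 95% interval from -2.04 to 2.13. The ratio of H2-Ea-ps to H2-Eb1 was between 1.54 and 2.84 in the 6 CD2F1 samples, although H2-Eb1 itself ranged widely there. In LLC it was at most 0.105, a bound set by the floor, and in KPP at most 0.00668. Ratios of probes depend on how well each probe binds, so only the order of the samples is read from them. Hc, complement component C5, for which DBA/2 carries a null allele and BALB/c a working one, was at 1 in each C26 control and at the floor of 20 in each LLC control, so it could not be compared. The promoter of H2-Eb1 is shown because this partner was read in both strains and carries the motifs that class II genes share. RefSeq gives it from the C57BL/6J genome (GRCm38.p6, chr17:34305617-34305866, plus strand), here the 250 bases before the transcript's start.
H2-Eb1: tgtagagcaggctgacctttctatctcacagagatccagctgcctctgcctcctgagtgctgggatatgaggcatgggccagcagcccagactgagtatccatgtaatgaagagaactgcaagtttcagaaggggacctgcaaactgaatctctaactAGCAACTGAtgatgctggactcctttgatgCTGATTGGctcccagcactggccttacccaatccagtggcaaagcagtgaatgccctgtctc
The capitals mark matches to the core of the X box (AGCAACNGA), 92 bases before the start, and to the Y box (CTGATTGG), 62 bases before it, the elements that bind the RFX and NF-Y factors of class II promoters. Both strands were searched and the motifs do not overlap. Of 32851 RefSeq promoters of the same length, 1.07% hold this X box core, 3.83% this Y box and 0.0609% both. These letters are a description and not a test of binding, and the H2-Ea promoter is not shown.

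**Figure D1:**
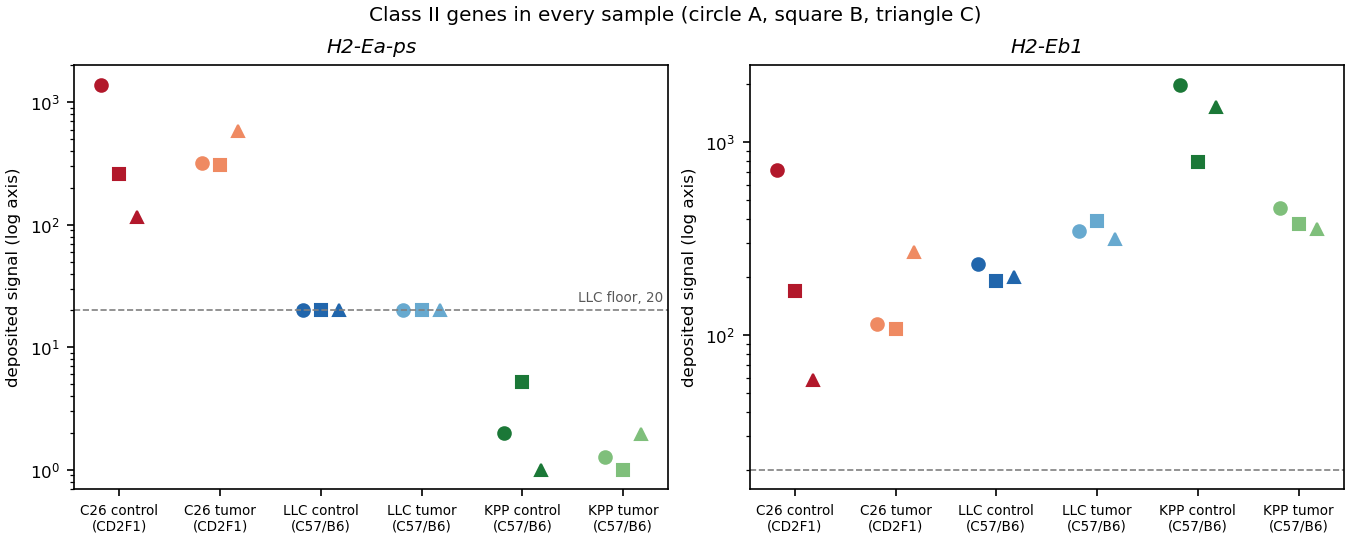
Deposited signal (log axis) of H2-Ea-ps and H2-Eb1 in each of the 18 samples, by group; circles, squares and triangles are samples A, B and C, and the dashed line is the LLC floor of 20. For H2-Ea-ps the 6 CD2F1 samples stand between 115 and 1399, while all LLC samples sit on the floor and KPP samples lie between 1 and 5.24; H2-Eb1 is read in all groups.

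Over the 90 tested genes, 15 (16.7%) passed limma's test at an adjusted p of 0.05, 12 higher (13.3%) and 3 lower (3.33%) in the C26 than in the LLC controls. Stat3, Tlr4, C4a, Csf1, Cd163, C3, Cebpb, Nfe2l2, Ccl21a, Il6ra, C1qa and Relb were higher, and Map2k6, Rps6ka5 and Prkca lower. Unadjusted p was under 0.05 for 36 genes, and the groups did not overlap for 51 (56.7%), of which 42 (46.7%) were higher in C26 and 9 (10.0%) lower. The median log2 difference over the 90 genes was 0.46. Scaled without Gapdh and Pgk1, the median was 0.17 and 9 genes (10.0%) passed, 5 higher (5.56%) and 4 lower (4.44%); with median centring it was -0.11 and 10 passed, 4 higher and 6 lower. Leaving out LLC control A, B or C left 0 genes past the threshold by limma, with 20, 19 and 19 at an unadjusted p under 0.05, although the median stayed at 0.48, 0.43 and 0.45 and 0 of the 15 genes changed sign. Leaving out C26 control A gave 34 calls and leaving out C26 control B gave 10. Because a gene could pass the filter through the group where it was high, 6 of the 12 higher genes reached the minimum only in C26 and 2 of the 3 lower genes only in LLC; counts and medians of gene lists below carry this choice and are given as a description.

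**Figure D2:**
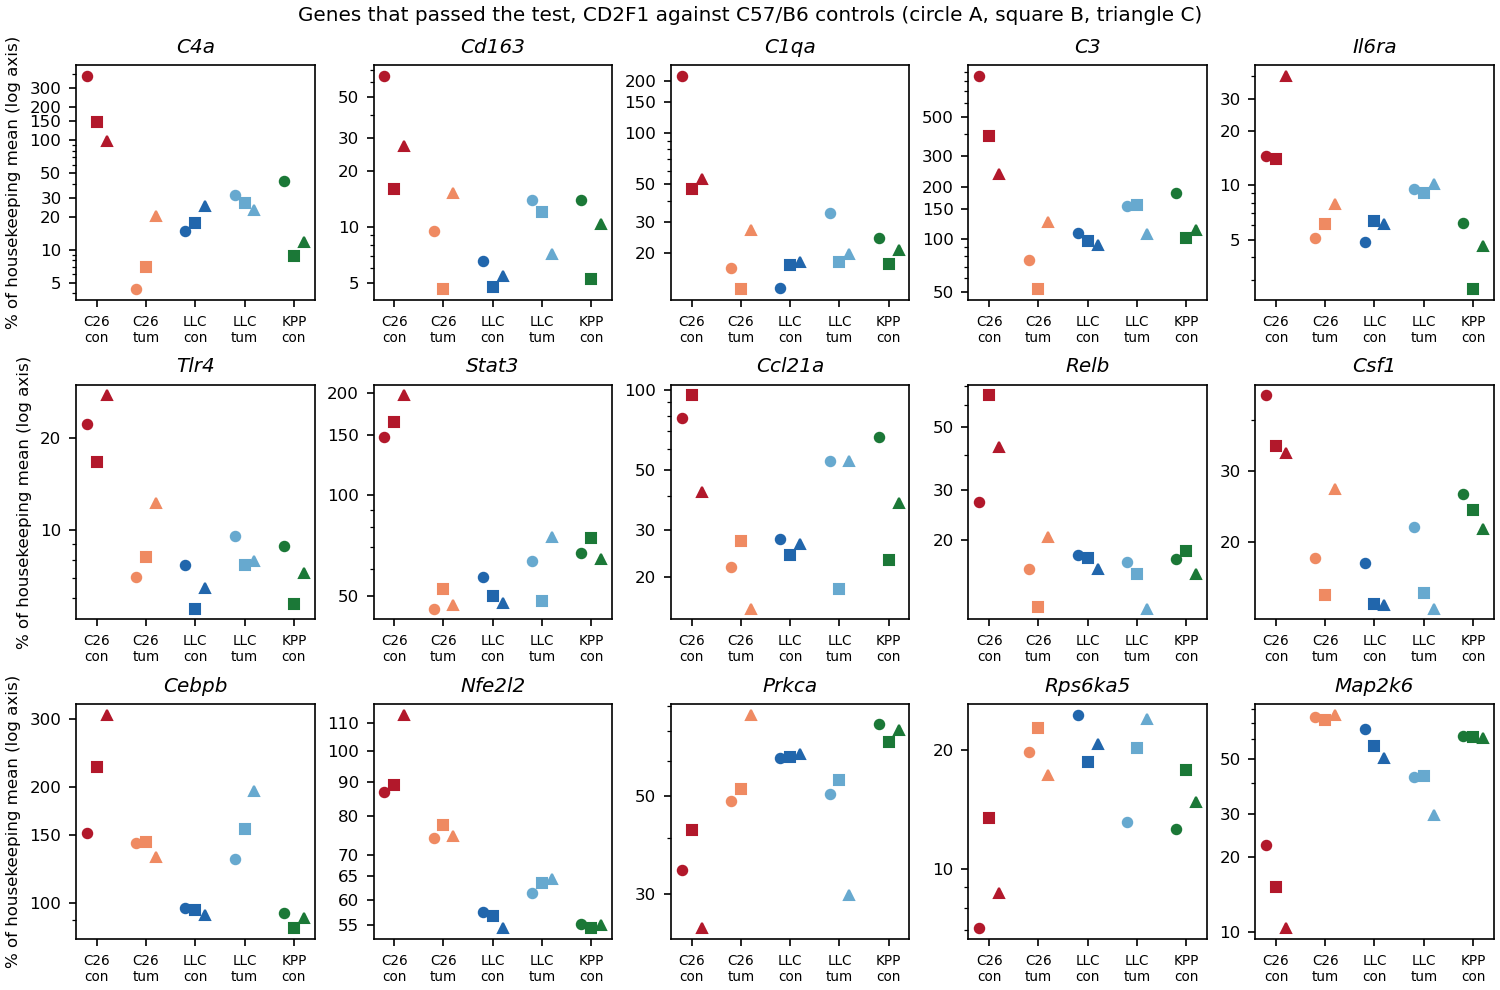
Level of each of the 15 genes that passed the test, as a percent of the housekeeping mean in its sample (log axis), in the C26, LLC and KPP controls (con) and the C26 and LLC tumor-bearing samples (tum); symbols are samples A, B and C. In every panel the C26 controls are clear of the LLC controls, and the C26 tumor-labelled samples lie on the LLC side of the C26 controls.

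Stat3, Il6ra, Cebpb and Tlr4, which receive or carry IL-6 and Toll-like signals, were higher in the C26 controls. Stat3, which IL-6 and its relatives activate to switch on acute phase genes, stood at 148%, 165% and 197% of the housekeeping mean in C26 controls A, B and C and at 56.98%, 50.1% and 47.8% in the LLC controls. The C26 samples were 3.28-fold higher (log2 1.71, SE 0.19, adjusted p = 0.00847), and the groups lay far apart relative to either spread. Tlr4, the receptor for bacterial lipopolysaccharide, stood at 22.2%, 16.8% and 27.6% against 7.69%, 5.54% and 6.48%, or 3.34-fold higher (1.74, SE 0.25, adjusted p = 0.0148). Both kept the call when scaled without Gapdh and Pgk1 (adjusted p = 0.0193 and 0.0214) and when KPP controls stood in for LLC controls (log2 1.30 and 1.60, adjusted p = 0.0254 and 0.0330). Il6ra, the IL-6 receptor, was 14.5%, 14.0% and 40.1% against 4.86%, 6.33% and 6.13%, highest in control C (log2 1.81, SE 0.44, adjusted p = 0.0442). Cebpb, a transcription factor downstream of IL-6 and IL-1, was 152%, 226% and 308% against 97.2%, 96.0% and 93.1% (1.20, SE 0.28, adjusted p = 0.0442). Of the 5 tested genes that receive IL-1 and IL-6 signals, 3 were thus higher and 0 lower, against 16.7% of all tested genes past the threshold, and 5 did not overlap, against 56.7%; these include the receptor Il1r1 (log2 0.93, adjusted p = 0.12) and its inhibitor Tollip (0.82, adjusted p = 0.12); the list's median was 1.20, and Il6ra, like Tlr4, met the filter only through the C26 controls. Only Stat3 of the 3 kept its call when scaled without Gapdh and Pgk1. Myc, a growth transcription factor that STAT3 can induce, was 39.7%, 21.3% and 79.4% against 9.95%, 14.3% and 12.3% and just missed the threshold (1.76, adjusted p = 0.0513). Bcl2l1, which protects cells from apoptosis, had a difference of 0.75 (adjusted p = 0.11).

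With the samples labelled C26 tumor-bearing in place of the C26 controls, these genes stood near the LLC controls. Stat3 was 45.9%, 52.4% and 47.1% there, overlapping the LLC controls (log2 -0.09, adjusted p = 0.62). For Tlr4 the difference was 0.46 (adjusted p = 0.20), with 7.05%, 8.20% and 12.3%. For Il6ra it was 0.12 (adjusted p = 0.68). Cebpb alone of the 4 kept its call (143%, 144% and 131%, log2 0.55, adjusted p = 0.0277). Its LLC tumor-bearing samples, at 130%, 155% and 195%, also lay above all LLC controls and overlapped the CD2F1 samples.

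C4a, C3 and C1qa were the complement genes that passed the test, all higher in the C26 controls. Complement is a blood and tissue protease cascade that tags and lyses targets; the classical route starts at C1, the alternative route is amplified by factors B and D, and both meet at C3. Of 10 tested genes 3 passed, all higher, and 1 did when scaled without Gapdh and Pgk1, while 16.7% of all tested genes passed. Without overlap 8 lay above the LLC controls and 1 below, against 46.7% and 10.0% of all tested genes, and the list's median log2 difference was 1.76 against 0.46; 4 of the 10, C1qa among them, met the filter only through the C26 controls. C4a, a copy of the C4 gene, was 387%, 148% and 99.4% of the housekeeping mean against 14.9%, 17.4% and 25.1%, a 9.56-fold difference (3.26, SE 0.52, adjusted p = 0.0148). Even the lowest C26 control was well clear of the highest LLC control. Probe sequences are not used here, so signal from the close copy C4b is not separated, and RefSeq lists C4a itself as a transcribed pseudogene in C57BL/6J. C3, where the routes meet, was 857%, 387% and 236% against 109%, 97.8% and 92.7% (2.10, SE 0.47, adjusted p = 0.0442). C1qa, a chain of C1q made by macrophages, was 214%, 46.8% and 53.5% against 12.4%, 16.8% and 17.5% (2.40, SE 0.60, adjusted p = 0.0442), and 1.70 without control A.

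The other complement genes did not pass. Cfd, factor D or adipsin, made in quantity by fat cells, ranged widely, at 1805%, 376% and 261% against 50.3%, 105% and 102% (2.79, adjusted p = 0.0513). C1qb (1.79, adjusted p = 0.11), Cfb, factor B (1.73, adjusted p = 0.12) and the protease C1s (1.20, adjusted p = 0.0999) had values in the same direction. Cd55, a membrane inhibitor of the cascade, had a smaller difference (77.4%, 69.2% and 67.5% against 55.1%, 49.5% and 47.7%, log2 0.49, adjusted p = 0.0999). C7, of the lytic complex, had the opposite sign (-0.37, adjusted p = 0.15), with 14.8% to 18.04% against 19.6% to 22.6%. With the samples labelled C26 tumor-bearing in place the list's median was -0.34. C4a was then 4.37%, 6.93% and 20.5% (log2 -1.13). Cfd was 9.49%, 8.84% and 16.4%, a log2 difference of -2.87 that passed (adjusted p = 0.0165). C1qa then differed by 0.19 (adjusted p = 0.68) and C3 by -0.33 (adjusted p = 0.47).

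Cd163 and C1qa were the macrophage markers that passed, both higher in the C26 controls. The summed level of 10 macrophage and monocyte markers was 813%, 175% and 221% of the housekeeping mean in the C26 controls, 98.3% to 113% in the LLC controls and 68.3% to 139% in the samples labelled C26 tumor-bearing. This list holds complement genes; the 7 markers left without them, a sum added after the values were seen, gave 388%, 90.03% and 119%, against 60.4% to 66.2% and 40.3% to 87.5%. The fibroblast and connective tissue sum of 7 genes was 1243%, 534% and 350%, against 193% to 200% and 134% to 264%; the 2 of them that are no complement genes, Mmp3 and Twist2, summed to 151%, 24.1% and 26.3%, against 13.7% to 20.3% and 2.02% to 11.4%. Neutrophil markers summed to 3.24% to 11.3% and T and NK cell markers to 1.03% to 7.41% in the C26 controls, with none reaching the minimum for membership. Their LLC values lie at or next to the floor. Twist2 was also at or next to the floor in the LLC controls, so its sum with Mmp3 there is in part a bound. The part of cell content in the complement, chemokine and macrophage values was not tested, and more cells of a type cannot be told apart from more RNA per cell in whole muscle. Of 7 tested macrophage and monocyte markers 2 passed, against 16.7% of all tested genes. Of the 7, 6 met the filter only through the C26 controls, both called genes among them, which favours the higher direction in this count. The sum of 10 markers above was taken without that filter. Cd163, the haemoglobin scavenger receptor of resident macrophages, was 64.9%, 16.0% and 27.3% against 6.56%, 4.75% and 5.43% (2.46, SE 0.51, adjusted p = 0.0404). With the samples labelled C26 tumor-bearing in place, the Cd163 difference was 0.66 (adjusted p = 0.28). Mrc1, the mannose receptor, was 148%, 38.8% and 44.0% against 19.0%, 14.7% and 15.8% and just missed (1.95, adjusted p = 0.0513). Ccr2, the chemokine receptor of recruited monocytes, was 53.3% in control A but 7.03% and 8.53% in B and C, on the other side of the LLC controls at 8.76% to 10.2%.

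Csf1, the growth factor that keeps macrophages alive, was 46.0%, 34.6% and 33.1% against 17.7%, 14.1% and 14.0% (1.30, SE 0.22, adjusted p = 0.0148) and kept its call without Gapdh and Pgk1 (1.01, adjusted p = 0.0423). Its C26 controls were close together, unlike the macrophage markers themselves. KPP controls stood between the groups at 26.3%, 24.0% and 21.5%. With the samples labelled C26 tumor-bearing in place, the Csf1 difference was 0.35 (adjusted p = 0.29). Of 3 tested chemokines 1 passed, against 16.7% of all tested genes. It was Ccl21a, which draws dendritic and T cells into lymphatic vessels, at 78.4%, 95.4% and 41.4% against 27.7%, 24.2% and 26.5% (1.38, SE 0.33, adjusted p = 0.0442). Its KPP controls, at 66.8%, 23.1% and 37.9%, overlapped both groups. Scaled without Gapdh and Pgk1, Ccl21a did not pass (1.08, adjusted p = 0.10). With the samples labelled C26 tumor-bearing in place, its difference was -0.33 (adjusted p = 0.29). Ccl8, a monocyte attractant, was 375% in control A against 25.1% and 11.6% in B and C (2.78, adjusted p = 0.13), and Ccl11, eotaxin, overlapped (0.23, adjusted p = 0.58).

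Of 6 tested genes of NF-kB and TNF receptor signaling 1 passed. Over all 90 tested genes 16.7% passed, the share to set beside each count of this paragraph. Relb, the subunit of the non-canonical NF-kB pathway, was 27.2%, 64.9% and 42.5% against 17.7%, 17.2% and 15.8% (1.32, SE 0.33, adjusted p = 0.0442), highest in control B. Rela, the main activating subunit, had 0.83 (adjusted p = 0.0836) and Nfkb1 0.52 (adjusted p = 0.12), and both also had groups without overlap. Nfe2l2, which encodes NRF2, the regulator of antioxidant genes, was 86.8%, 88.8% and 113% against 57.5%, 56.8% and 54.5%, a 1.70-fold difference (0.76, SE 0.18, adjusted p = 0.0442); it was 1 of 4 genes of that pathway to pass, and Keap1, which holds NRF2 in check, overlapped between groups (0.73, adjusted p = 0.19). Nfe2l2 was also called with the samples labelled C26 tumor-bearing in place (74.2%, 77.6% and 74.5%, log2 0.42). Relb was then 15.8%, 11.6% and 20.5% (-0.12). Scaled without Gapdh and Pgk1, neither Relb (1.03, adjusted p = 0.11) nor Nfe2l2 (0.47, adjusted p = 0.16) kept its call in the controls. Of 3 tested interferon-stimulated genes 0 passed by limma, although Ifi27l2a and Irf1 had an unadjusted p under 0.05; Ifi27l2a was 574%, 220% and 54.0% against 28.9%, 47.9% and 46.4% (2.24, adjusted p = 0.11).

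The 3 genes that passed as lower in the C26 controls encode kinases. The share of kinases among all tested genes was not counted. Mef2c, Smad7, Hspb2 and C7, which are not kinases, also lay below the LLC controls without overlap but did not pass. Map2k6, which activates p38 MAP kinases, was 22.4%, 15.2% and 10.3% of the housekeeping mean against 66.4%, 56.6% and 50.3%, or 3.78-fold lower (log2 -1.92, SE 0.32, adjusted p = 0.0148). Its highest C26 control was under the lowest sample of every other group without tumors, with KPP controls at 62.0%, 61.5% and 60.5% (-2.01, adjusted p = 0.0254). Rps6ka5, the nuclear kinase MSK1 that acts below p38 and ERK, was 7.09%, 13.5% and 8.69% against 24.5%, 18.6% and 20.7% (-1.17, SE 0.28, adjusted p = 0.0442). Prkca, protein kinase C alpha, was 33.9%, 41.8% and 25.05% against 60.9%, 61.2% and 62.2% (-0.90, SE 0.23, adjusted p = 0.0452). All 3 kept the call without Gapdh and Pgk1, where each difference was larger and Smad7, which inhibits TGF-beta receptors, joined them (-0.75, adjusted p = 0.0498).

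Of 14 tested MAP kinase cascade genes 2 passed, against 16.7% of all tested genes. These were Map2k6 and Rps6ka5, and both met the filter only through the LLC controls, where they are high. The list's median was 0.10, turning to -0.19 without Gapdh and Pgk1. The p38 kinase itself, Mapk14, differed by 0.31 (95% interval -0.38 to 1.01), and Map2k4, which acts on JNK, by -0.38 (-0.90 to 0.14). Mef2c, a muscle transcription factor that p38 acts on, was 262%, 361% and 124% against 506%, 476% and 485%; the groups did not overlap, but it did not pass (-1.10, adjusted p = 0.10). Among 7 muscle and MEF2 genes 0 passed by limma, with Mef2c and Hdac4 at an unadjusted p under 0.05. Hdac4, which represses MEF2, was 49.5%, 121% and 70.1% against 41.6%, 34.8% and 36.8% (0.99, adjusted p = 0.0999). Hspb1, a small heat shock gene, spanned 209%, 571% and 1756% in the C26 controls and 201% to 232% in LLC. With the samples labelled C26 tumor-bearing in place, Map2k6 was 73.9%, 71.8% and 75.4%, above all LLC controls (0.36, adjusted p = 0.11). Rps6ka5 (-0.09, adjusted p = 0.68) and Prkca (-0.09, adjusted p = 0.73) then overlapped the LLC controls.

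Of 6 TGF-beta and matrix genes 0 passed by limma, with Tgfbr1 and Smad7 at an unadjusted p under 0.05. Their median was -0.01, with members on both sides: Mmp3 at 1.64 and Tgfbr1, a TGF-beta receptor, at 1.15 lay above the LLC controls, and Smad7 at -0.45 below. Among the ligands, Tgfb2 differed by 0.00 (95% interval -0.57 to 0.58) and Tgfb3 by -0.03 (-0.74 to 0.68). The glucocorticoid receptor Nr3c1 was 108%, 105% and 90.9% against 98.7%, 93.2% and 89.4% (0.11, interval -0.30 to 0.52). For the transcription factor Tcf4 the difference was 0.02 (-0.37 to 0.41). Differences inside these intervals cannot be told from 0 with 3 samples a group, so they do not show that the strains are alike.

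**Figure D3:**
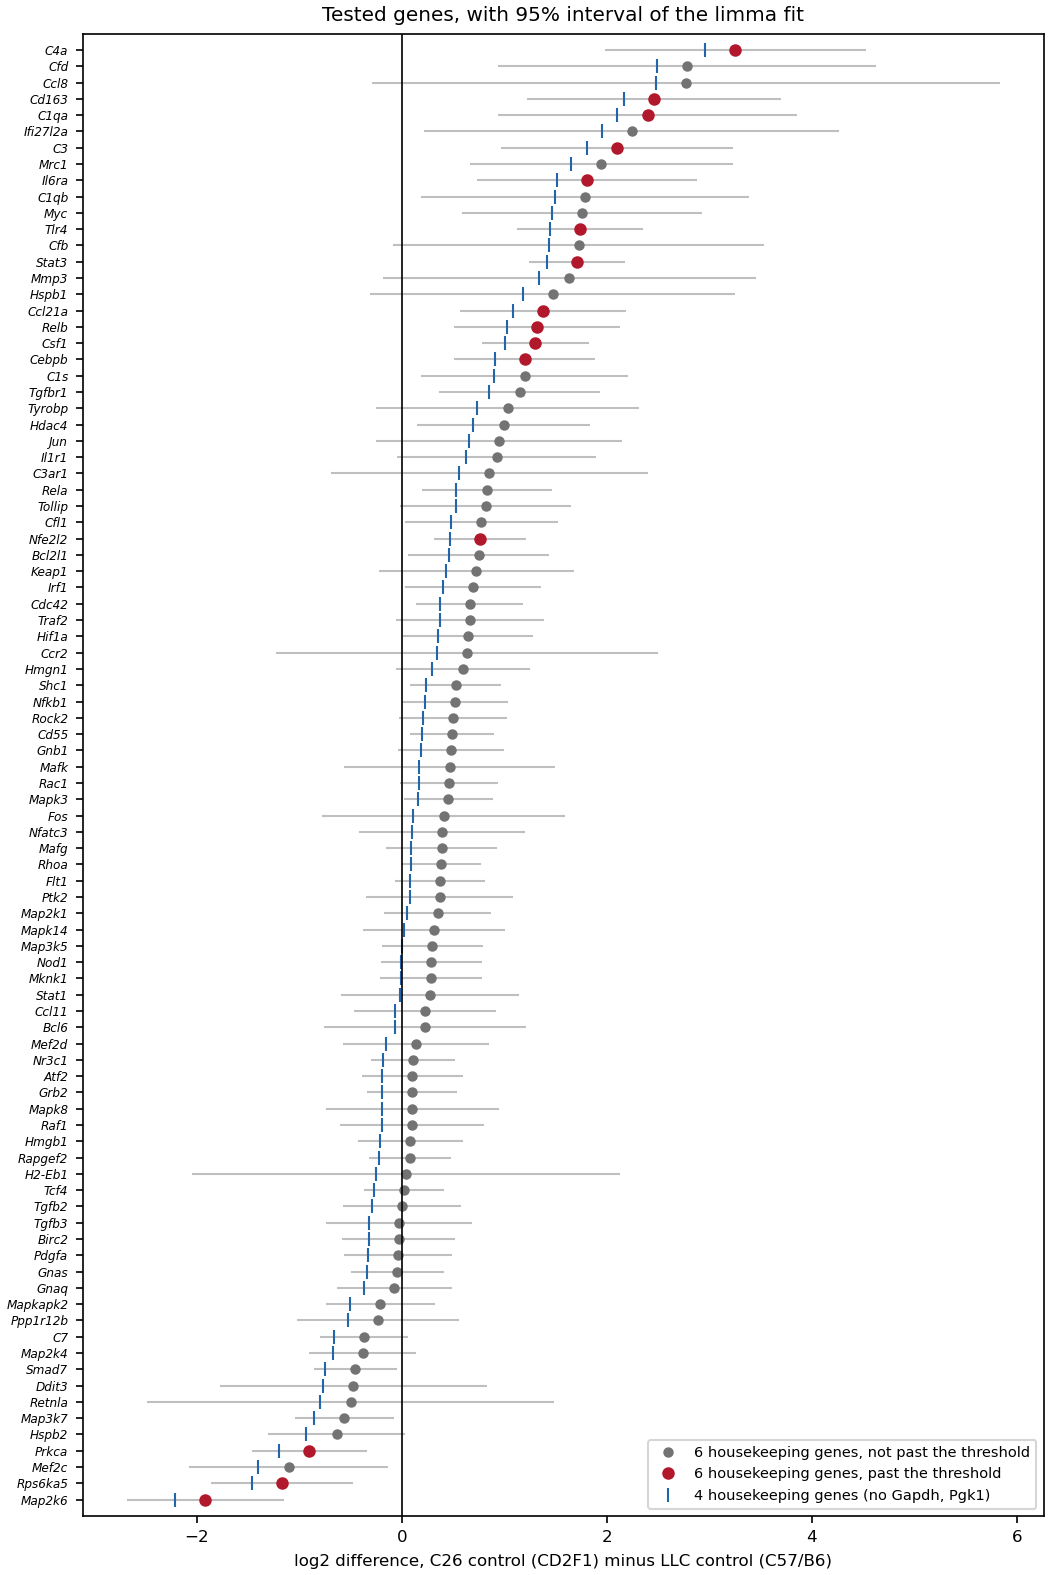
Log2 difference of each of the 90 tested genes, C26 controls (CD2F1) minus LLC controls (C57/B6), with the 95% interval of the limma fit; red points passed the threshold and blue ticks give the value when scaled without Gapdh and Pgk1. Most points lie right of 0 (median 0.46), and the blue ticks lie a fixed step to the left (median 0.17).

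The 6 housekeeping genes differed between the C26 and LLC controls relative to each other, and the choice among them shifts every gene by the same step. Gapdh and Pgk1, enzymes of glycolysis, were lower in the C26 controls: Gapdh stood at 1479% to 1981% of the housekeeping mean against 2539% to 2738%, a log2 difference of -0.68, and Pgk1 differed by -0.50. Cltc, the clathrin heavy chain (0.65), Hprt, of purine salvage (0.61), and the lysosomal enzyme Gusb (0.30) had the opposite sign, and Tubb5, a tubulin, was at -0.38. These differences sum to 0 by construction. In the samples labelled C26 tumor-bearing against the LLC controls Gapdh differed by 0.11 and Pgk1 by 0.35.

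**Figure D4:**
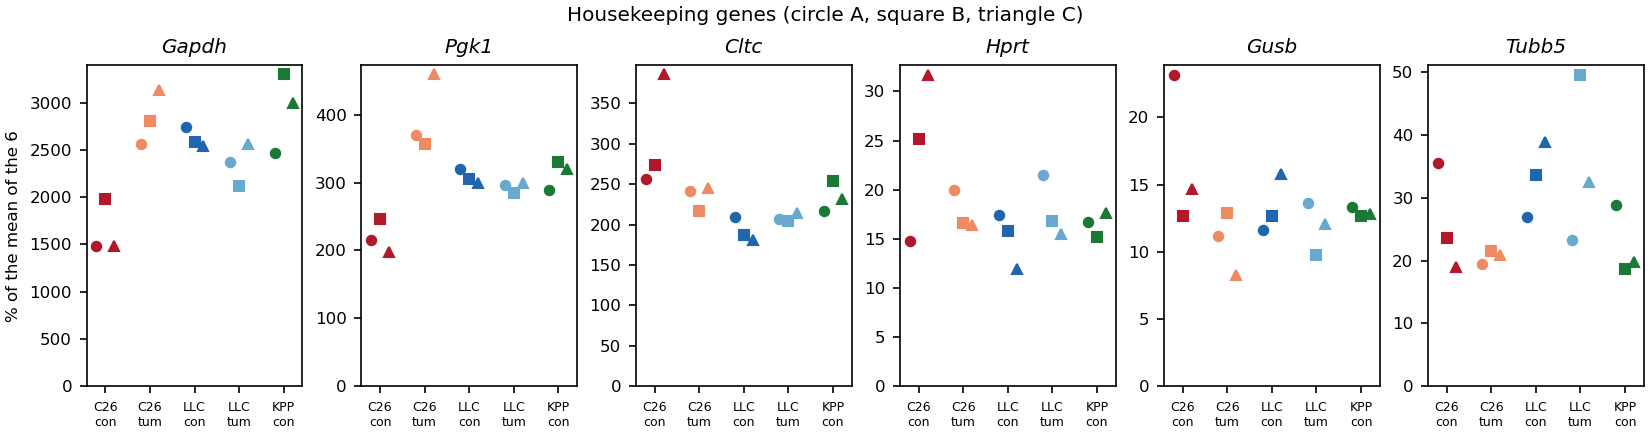
Level of each housekeeping gene as a percent of the geometric mean of the 6 in its sample (linear axis from 0), in the C26, LLC and KPP controls (con) and the C26 and LLC tumor-bearing samples (tum); symbols are samples A, B and C. Gapdh and Pgk1 are lowest in the C26 controls, and Cltc is highest in C26 control C.

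The strains met again in the tumor-bearing mice, which share no sample with the controls but differ in tumor line as well. Of 81 genes that met the same filter there, 11 (13.6%) passed limma's test for samples labelled C26 tumor-bearing against LLC tumor-bearing, 7 higher (8.64%) and 4 lower (4.94%). These were Ddit3 (log2 1.62), a stress-induced transcription factor, Irf5 (1.63), Map2k6 (0.97), Ccl11 (0.78), Tcf4 (0.77), Pdgfa (0.65) and the small GTPase Cdc42 (0.63), and, lower, Cfd (-2.84), Ccr2 (-1.82), Myc (-1.41) and Hdac4 (-0.75). Leaving out C26 tumor-bearing A or B left 1 gene, LLC tumor-bearing A 2, B 6 and C 7; without C26 tumor-bearing C 12 passed, 2 higher and 10 lower. Of the 15 genes called in the controls 11 could be tested there, 2 had the same direction (Nfe2l2, 0.26, adjusted p = 0.25, and Csf1, 0.23, adjusted p = 0.55) and 1 was called in both sets, with opposite signs: Map2k6. Irf5 apart, the 11 are members of the control comparison too, where Map2k6 was the only gene of theirs that passed.

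**Figure D5:**
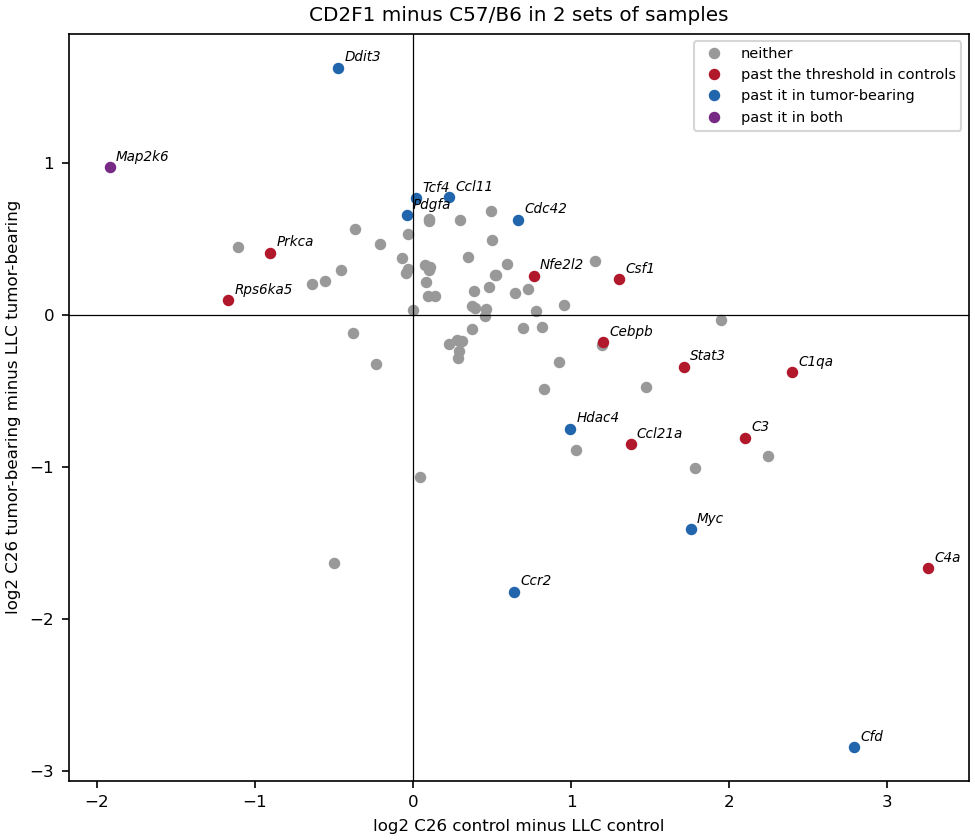
Each point is a gene tested in both sets: the log2 difference of CD2F1 minus C57/B6 among samples labelled control (x axis) and among samples labelled tumor-bearing (y axis), coloured by where it passed the threshold. C4a, Cfd, C1qa and C3, to the right, lie below 0 on the y axis, and Map2k6, furthest left, lies above 0.

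The difference between the strains itself differed between the labelled sets. In a fit over the 12 C26 and LLC samples, added after the values were seen, 23 of 77 genes (29.9%) passed for the control difference less the tumor-bearing difference, 24 (31.2%) without Gapdh and Pgk1, and 15 under both. Of the 23, 10 are among the 15 genes called in the controls, of which 11 could be tested here, and 21 have opposite signs in the sets. The tested value contains the control difference of the same samples, and a large value favours opposite signs. Both counts are therefore a description. The KPP controls, of the same strain label as the LLC controls, gave a further comparison that shares the LLC samples. There 2 of 109 genes (1.83%) passed, C1s (0.80) and C1ra (0.85), proteases of the C1 complex, both higher in KPP, with 27 at an unadjusted p under 0.05. With KPP in place of LLC controls against the C26 controls, 4 of 90 genes passed (4.44%): Stat3, Tlr4 and Mmp3, a matrix protease, were higher (3.33%) and Map2k6 lower (1.11%). All 15 genes had the same sign against KPP as against LLC controls. Both comparisons use the C26 controls by which the 15 were picked, so the signs are a description and not a separate test.

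Few members separated the strains whatever the label of the mice. With the samples labelled C26 tumor-bearing in place of the controls, 10 of 90 genes (11.1%) passed, 8 higher (8.89%) and 2 lower (2.22%), and Cebpb and Nfe2l2 were the genes shared with the 15. Every CD2F1 sample lay above every LLC sample for 5 of the 91 members (H2-Ea-ps, Nfe2l2, Cdc42, Gnb1 and Cd55) and below for 0. Nfe2l2 ranged from 74.2% to 113% in the 6 CD2F1 samples and from 54.5% to 64.3% in the 6 LLC samples. Cdc42 ranged from 584% to 904% against 397% to 487%, Gnb1, a G protein beta subunit, from 64.6% to 106% against 54.7% to 62.6%, and Cd55 from 57.7% to 77.4% against 31.7% to 55.1%. Without Gapdh and Pgk1 as scaling genes, H2-Ea-ps and Nfe2l2 were left. Among the tumor-bearing mice Cdc42 passed the test (0.63, adjusted p = 0.0480), while Cd55 (0.68, adjusted p = 0.0678) and Gnb1 (0.18, adjusted p = 0.42) did not.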

How the data were processed

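TA muscle RNA of 18 samples was read with the nCounter mouse inflammation panel; groups and letters come from the labels' titles. The authors deposited a normalized signal, with no processing steps given in the sources used here. Read from the values, the signal was scaled within each model so that the 6 housekeeping genes have 1 geometric mean (532.0 in C26, 591.2 in LLC, 1769.1 in KPP). Background was subtracted in C26 and KPP, while LLC values under 20 were written as 20 and are bounds. Low values of the 6 control samples lie on steps that give the counts behind them (100% within a tolerance of 0.1); since not every gene gave a whole count, no count-based test was run.

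Each value was divided by the geometric mean of 6 housekeeping genes in its sample, or of 4 (without Gapdh and Pgk1), and taken as log2. The filter was a deposited mean of 100 or more in either group. limma 3.58.1 in R 4.3.3 (lmFit and eBayes, 1 mean per group) was fitted to the 6 samples of each comparison, two-sided, with Benjamini-Hochberg adjustment over all genes tested, and every adjusted p printed comes from it. SE is limma's moderated standard error. An exact test of 3 against 3 samples cannot go below 0.1, so none was used. The fit was tested on simulated data. There the share of false genes among its calls was above the adjusted p threshold, and part of the changed genes was missed. The calls above can therefore hold more false genes than the threshold implies.

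Named are the genes past the threshold in the control comparison, list members by counts with values for some, genes at the LLC floor, the housekeeping genes, and H2-Ea-ps, H2-Eb1 and Hc; list members that did not pass were picked for their role. Members, lists and tests were chosen with earlier results of these data known. Same-lettered samples of the C26 and LLC controls did not deviate together (correlations -0.47, -0.05 and -0.32), so letters do not pair samples. No 2 samples held identical values. Of the gene names, 248 matched a RefSeq symbol and 6 a synonym. Alternatives covered scaling, filter, offsets, weights, moderation and each sample left out.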

Additional observations from a re-analysis of the deposited data

Results flagged for a closer look

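For 23 genes the strain difference of the controls differed from that of the tumor-bearing mice in limma's test of the difference itself, fitted over 12 samples and added after the values were seen. Values are the log2 difference of C26 minus LLC in controls less the same in tumor-bearing mice. Among complement genes they were 5.63 for Cfd, 4.92 for C4a, 2.91 for C3, 2.79 for C1qb, 2.77 for C1qa and 1.40 for C1s. Macrophage genes and factors gave 1.98 for Mrc1, 1.92 for Tyrobp, which encodes the adaptor DAP12, and 1.07 for Csf1, and the chemokine Ccl21a gave 2.23. Transcription factors gave 3.16 for Myc, 2.05 for Stat3, 1.38 for Cebpb and 1.32 for Rela, with Ddit3 at -2.10, Mef2c at -1.55 and Tcf4 at -0.75. The interferon-induced Ifi27l2a stood at 3.17 and the deacetylase Hdac4 at 1.74. The kinases among the 23 genes had the opposite sign, with Map2k6 at -2.89, Prkca at -1.31 and Rps6ka5 at -1.26, as had the TGF-beta inhibitor Smad7 at -0.74. The control difference was above 0 for 17 of the 23, but its median over all 90 tested genes was also above 0, at 0.46. The count is therefore not read as a trait of the 23. Scaled without Gapdh and Pgk1, 15 of the 23 passed, while Mrc1, Tyrobp, Csf1, Ccl21a, C1s, Rela, Cebpb and Ifi27l2a did not. Tumor line and strain are the same split in the tumor-bearing mice and cannot be told apart.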

How the results depend on the processing

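Against 15 calls in the controls, limma gave 9 when scaled to 4 housekeeping genes, 8 with deposited values unscaled, 9 with 20 added before scaling, 9 with trend and robust moderation, 5 with a mean of 50 or more, 32 when all 9 controls shared the spread, 4 with KPP controls in place of LLC (5 with 4 housekeeping genes) and 0 with all 6 C26 samples against LLC controls (10 unadjusted). Weights per group gave 21, 20 subtracted from LLC 14, median centring 10. Leaving out 1 sample gave 0 to 34 in the controls, 1 to 12 in tumor-bearing mice and 0 to 7 for KPP against LLC controls. With the letters as a replicate block, a pairing the samples do not bear out, limma called 0, 3 and 0 genes (23 unadjusted in the controls). The tumor-bearing count of 11 became 7 unscaled, 4 with 20 subtracted from LLC, 4 with a mean of 50 or more and 3 with a mean of 100 or more over all samples; higher and lower were 6 and 10 with median centring. The KPP against LLC count of 2 became 5 with median centring, 107 unscaled, 15 with 20 added, 20 with 20 subtracted from LLC, 4 and 15 with means of 50 and 200 or more, and 12 with trend and robust moderation. Of the 15 genes, picked with the same C26 controls, 0 changed sign under scaling, filter, moderation, left-out samples or KPP controls. With the samples labelled C26 tumor-bearing in place, C3 (-0.33), C4a (-1.13), Ccl21a (-0.33), Map2k6 (0.36), Relb (-0.12) and Stat3 (-0.090) did; with 4 housekeeping genes as well, C3 (-0.22), C4a (-1.02), Ccl21a (-0.21), Map2k6 (0.48), Prkca (0.022), Relb (-0.0044) and Rps6ka5 (0.020). The cause was not tested. Counting error and the LLC floor limit low genes.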
